A study of Mus musculus with 12 samples.

Results

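The genes described here were 10 members of the pathway by which blood vessels are formed and maintained, chosen by name: the 6 ligand genes Vegfa, Vegfb, Vegfc, Pgf, Angpt1 and Angpt2, and the 4 receptor genes Kdr, Flt1, Tek and Nrp2. They are 10 of the 21851 protein-coding genes of the GENCODE M21 annotation (mm10) that were read in the same way. For each gene, every peak overlapping its annotated body or the 20000 bp on either side, called its window below, was taken from the 4 deposited peak lists. The study asked how oxygen changes histone marks in mesenchymal stromal cells (MSCs), the connective tissue progenitors of bone. Chromatin immunoprecipitation sequencing (ChIP-seq) was performed for histone H3 acetylated at lysine 27 (H3K27ac) and trimethylated at lysine 4 (H3K4me3), with unprecipitated input, giving 12 libraries in 6 groups of 2.

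All groups were bone-marrow MSCs of mice aged 3 to 5 months, per the labels, and differed in the oxygen of the culture, which was 2% in hypoxia and 21% in normoxia. The study's methods give wild-type C57BL/6N mice, bone-derived cells grown at the low oxygen level, a sort for CD45-/TER-119-/Sca-1+/CD140a+ cells, and a further week in hypoxia or normoxia. The labels differ in that they name both oxygen levels for the flasks and place the sort at the end of culture. The gate removes blood cells by CD45 and TER-119 and keeps only cells with both Sca-1 and CD140a. It holds no step that removes cells by an endothelial surface marker. A single peak list was deposited per mark and oxygen level for the 2 libraries of each group, so the lists hold no value per library, and no test of any difference was possible.

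VEGF-A is the main driver of vessel sprouting and is bound by the receptor tyrosine kinases KDR (VEGFR2), which carries most of its signal, and FLT1 (VEGFR1), which binds it tightly and limits what reaches KDR. VEGF-B and placental growth factor (PGF) bind FLT1, and VEGF-C acts mainly on lymphatic vessels. Angiopoietin 1 (Angpt1) activates the endothelial receptor TEK (TIE2) and steadies vessels, whereas angiopoietin 2 (Angpt2) often opposes it, and neuropilin 2 (Nrp2) is a co-receptor for VEGF-C and class 3 semaphorins. H3K4me3 is typically found at the starts of genes that are active or poised, and H3K27ac at active starts and enhancers. Low oxygen stabilises the HIF transcription factors, of which Vegfa is a classical target.

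Nearly the same peaks were listed around these genes in hypoxia and normoxia, as was the case over the whole series. The windows held 13 distinct intervals, 7 with H3K27ac and 10 with H3K4me3. All 10 H3K4me3 intervals and 6 of the 7 H3K27ac intervals were in both lists of their mark, and the remaining H3K27ac interval, inside Nrp2, was in the hypoxia list alone. Over all H3K27ac intervals of the series, 3.82% were hypoxia-only and 1.41% normoxia-only, and over all H3K4me3 intervals 0.0411% were hypoxia-only and 0.0205% normoxia-only. By gene, 1 of 10 had a hypoxia-only H3K27ac peak in its window and none a normoxia-only peak, against 4.68% and 1.15% of all genes. A count of 1 in 10 is too small to be read against those shares.

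H3K4me3 lay within 1000 bp of an annotated start of 7 of the 10 genes, where 58.9% of all genes had it. H3K27ac lay there at 3 of the 10, namely Vegfa, Vegfb and Nrp2, against 37.6% of all genes in hypoxia and 37.0% in normoxia. These 3 genes had both marks at a start, as did 36.4% of all genes. Vegfc, Angpt1, Kdr and Flt1 had H3K4me3 only, the state of 22.5% of all genes. Pgf, Angpt2 and Tek had neither mark, as did 39.9%. None of the 10 genes changed state between the oxygen levels, and few genes did so at all (168 of 21851). With the lowest-scoring 25% of each list left out, the Nrp2 start peak remained in the hypoxia list and was lost from the normoxia list. The cells were a bulk culture, so a mark carried by few cells and a weak mark on all of them cannot be told apart, and an absent peak means only that none was called.

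Reading ligands against receptors did not separate the groups cleanly. H3K27ac was present in the windows of 3 of 6 ligands and 1 of 4 receptors, where 54.9% of all genes had it, and at a start of 2 of 6 and 1 of 4. H3K4me3 was at a start of 4 of 6 ligands and 3 of 4 receptors. Pooled over the windows, H3K27ac covered 3.5% of the ligand sequence at both oxygen levels. The receptor sequence was covered to 4.67% in hypoxia and 4.02% in normoxia, and over all genes the shares were 6.65% and 6.48%. All of the receptor coverage was at Nrp2, so the median receptor had 0%, the median ligand 3.29% and the median gene 2.53% in hypoxia. For H3K4me3, the pooled coverage was 4.82% for ligands and 1.85% for receptors, with 4.07% over all genes, but much of the ligand value came from the gene-dense window of Vegfb.

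**Figure D1:**
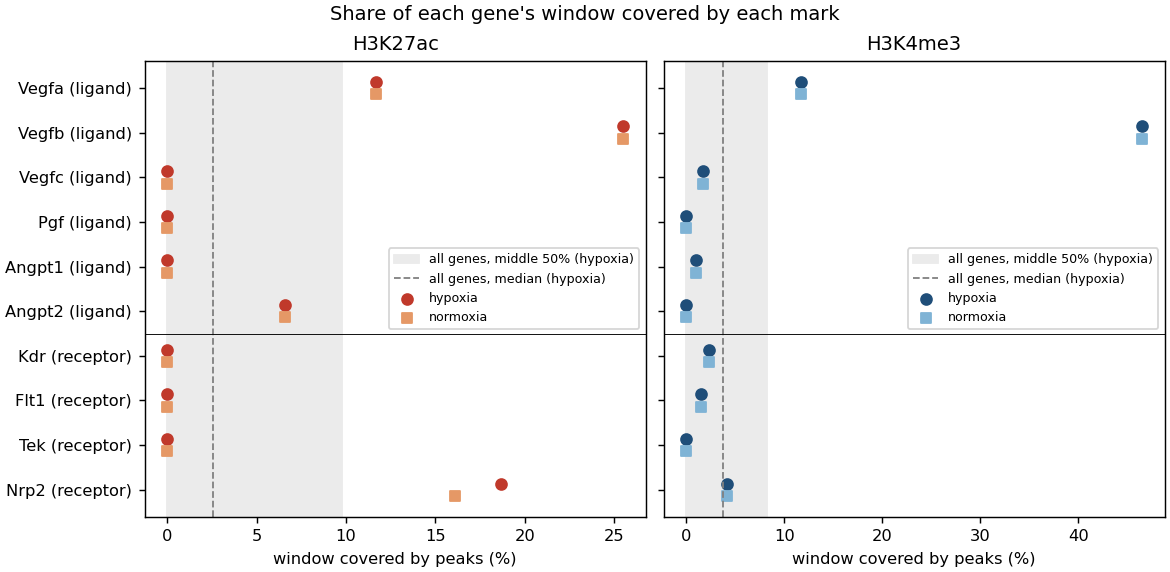
Percent of each gene's window (gene body with 20000 bp on either side) covered by H3K27ac (left) and H3K4me3 (right) peaks, with hypoxia as circles and normoxia as squares. The shaded band is the middle 50% of all protein-coding genes and the dashed line their median, both in hypoxia. Vegfa, Vegfb and Nrp2 lie above the H3K27ac band, and Nrp2 is the gene whose hypoxia and normoxia values differ (18.7% and 16.1%).

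Vegfa (chr17:46016993-46032369, minus strand) had 1 peak in its window, carrying both marks. It spanned 6500 bp (chr17:46027001-46033500), covering all 4 of the gene's annotated starts and reaching into intronic sequence. H3K27ac and H3K4me3 each covered 11.7% of the window, more than in 78.3% of genes for H3K27ac in hypoxia and 84.9% for H3K4me3, and no other coding gene lay in the window. The H3K27ac score of this peak was 134 in hypoxia and 128 in normoxia, and the H3K4me3 score was 131 in both. The score is the authors' own value for a peak, between 50 and 160 or capped at 1000, and its definition is not given in the sources used here. As an H3K4me3 domain the Vegfa interval was wider than 97.5% of those in the hypoxia list.

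Vegfb (chr19:6982473-6987651, minus strand) lies among 7 other coding genes, and most of the marks in its window were at their starts. Its own start peak (chr19:6986001-6989000, 3000 bp) carried both marks and also overlapped the neighbouring Dnajc4. The H3K27ac score there was 104 in hypoxia and 83 in normoxia, and the H3K4me3 score was 130 in both. Another interval with both marks (chr19:6973501-6982000, 8500 bp) scored 131 and 124 for H3K27ac and lay nearest the starts of Fkbp2 and Ppp1r14b. H3K4me3 alone covered a further pair of intervals, at chr19:6967501-6970500 by Plcb3 and chr19:6991001-6997500 by Dnajc4, Nudt22 and Trpt1. Together H3K27ac covered 25.5% of the window and H3K4me3 46.5%, the latter more than in 99.9% of genes.

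Vegfc and Angpt1 carried H3K4me3 at the start and no H3K27ac anywhere in their windows, at either oxygen level. At Vegfc (chr8:54077606-54187096, plus strand) the H3K4me3 peak was 2500 bp wide (chr8:54076501-54079000) with a score of 128. At Angpt1 (chr15:42424723-42676977, minus strand) it was 3000 bp wide (chr15:42674501-42677500) and its score was at the cap of 1000 in both lists. The nearest H3K27ac peak lay 450222 bp from the start of Vegfc and 396024 bp from that of Angpt1. Only 10.9% and 12.1% of all genes were farther from H3K27ac, and the median gene was 21717 bp from it.

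Angpt2 (chr8:18690263-18741562, minus strand) showed the reverse arrangement, with H3K27ac inside the gene and no mark at its start. The interval spanned 6000 bp (chr8:18723001-18729000), lay wholly in intronic sequence, and began 12562 bp downstream of the start. Its score was 92 in hypoxia and 94 in normoxia, and it covered 6.57% of the window. The gene lies within Mcph1, on which this interval also falls, so the peak cannot be given to Angpt2 by position alone. The nearest H3K4me3 was 103439 bp from the Angpt2 start. Pgf (chr12:85166635-85177790, minus strand) had no peak of either mark in its window, as did 28.3% of all genes, and its nearest H3K27ac was 41211 bp away, at Eif2b2.

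**Figure D2:**
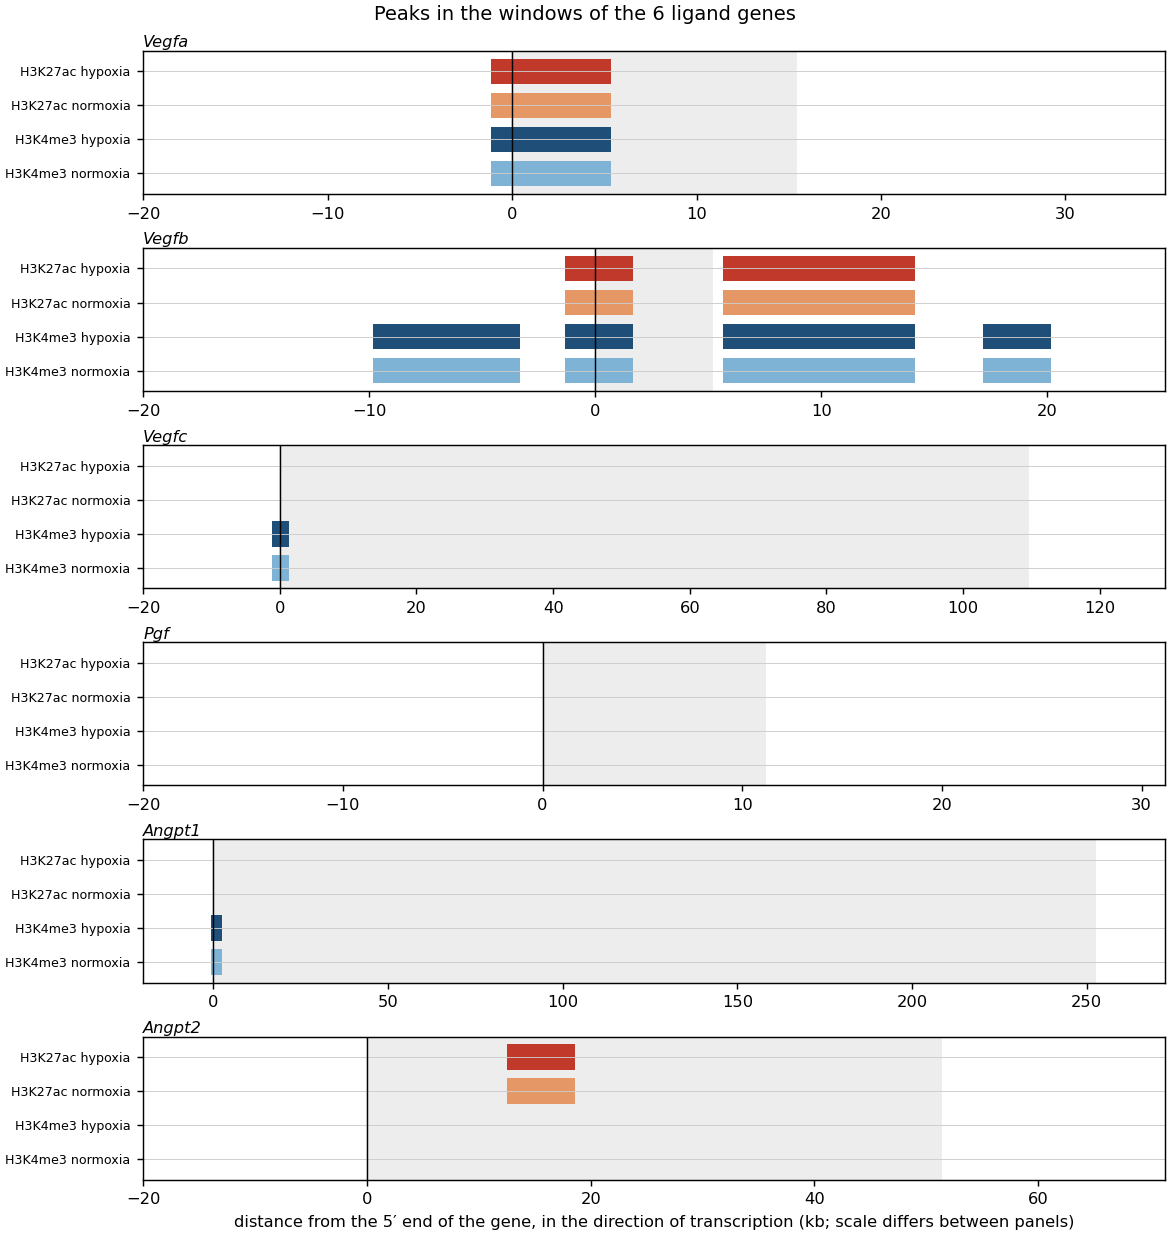
Peaks of both marks in hypoxia and normoxia in the windows of the 6 ligand genes, by distance in kb from the 5′ end of each gene in the direction of transcription. The gene body is shaded, the vertical line marks its 5′ end, and the horizontal scale differs between panels. Hypoxia and normoxia bars coincide in every panel, and the Pgf panel holds none.

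Of the receptors, Kdr, Flt1 and Tek had no H3K27ac in their windows in either culture. At Kdr (chr5:75932827-75978458, minus strand) H3K4me3 covered 2000 bp over the start (chr5:75977501-75979500) with a score of 125. Of the 13138 H3K4me3 domains in the hypoxia list, 10173 were wider, 3.01% were narrower and the rest had the same width. At Flt1 (chr5:147561604-147726011, minus strand) H3K4me3 covered 3000 bp (chr5:147724501-147727500) with a score of 137. Tek (chr4:94739289-94874976, plus strand) had no peak of either mark. The nearest H3K27ac was 160543 bp from the start of Kdr, 133490 bp from that of Flt1 and 117789 bp from that of Tek. Between 22.1% and 26.4% of all genes lay farther away than these 3.

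Nrp2 (chr1:62703285-62818695, plus strand) differed from the other receptors in carrying an extended H3K27ac domain. An interval of 6500 bp over the start (chr1:62702001-62708500) had both marks, with H3K27ac scores of 81 in hypoxia and 62 in normoxia and an H3K4me3 score of 131 in both. It was directly followed by 18500 bp of H3K27ac without H3K4me3 (chr1:62708501-62727000), at the score cap of 1000 in both lists. Joined, they formed a domain of 25000 bp, wider than 96.2% of the H3K27ac domains in the hypoxia list, of which 474 of 12835 were wider. After a gap of 13500 bp came the hypoxia-only peak (chr1:62740501-62744500, 4000 bp), which began 36799 bp downstream of a start and covered 3769 bp of intron and 231 bp of coding exon. With it, the covered share of the window was 18.7% in hypoxia, and 16.1% in normoxia.

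**Figure D3:**
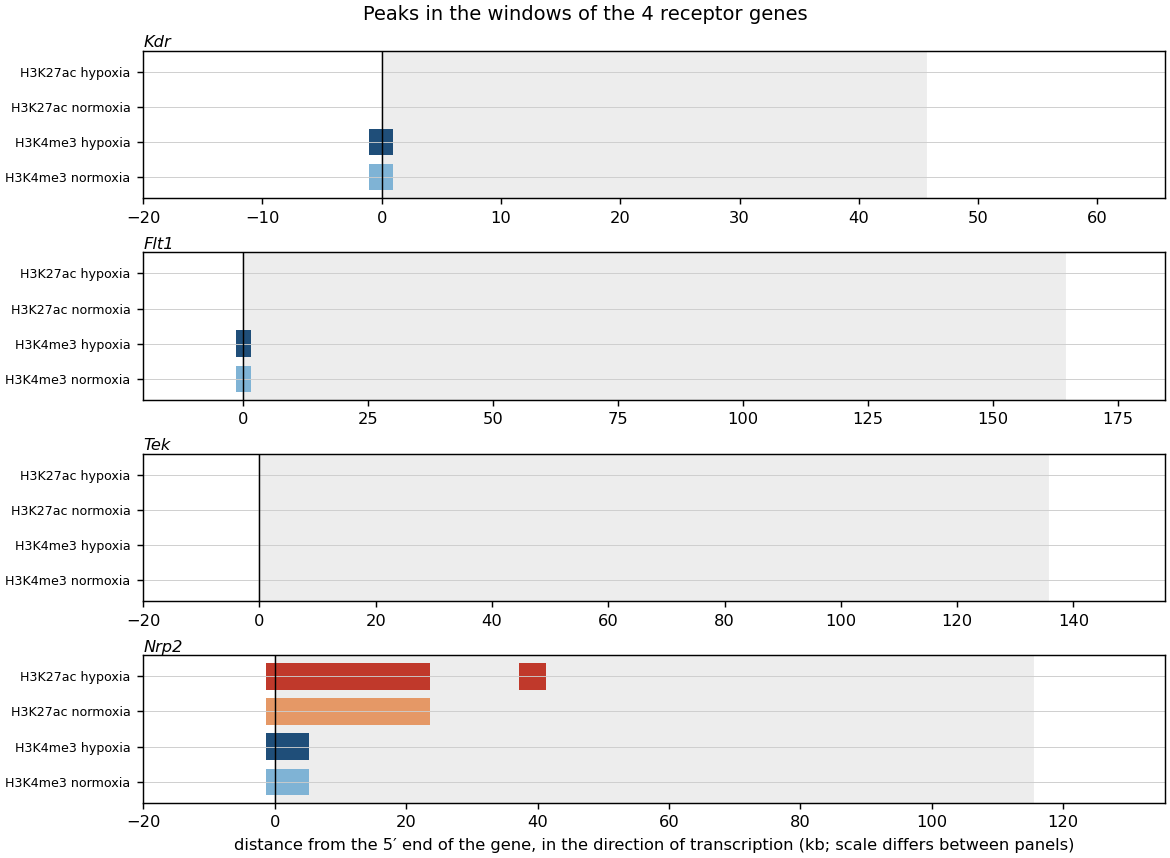
Peaks of both marks in hypoxia and normoxia in the windows of the 4 receptor genes, drawn by distance in kb from the 5′ end of each gene with the gene body shaded and a horizontal scale that differs between panels. The separate H3K27ac bar inside Nrp2 appears in the hypoxia track only, and the Tek panel holds no peak.

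The hypoxia-only peak of Nrp2 was among the lowest-scoring in its list. Its score was 54, and 4.87% of the hypoxia H3K27ac peaks scored lower. Among the 413 hypoxia-only H3K27ac intervals without H3K4me3 the median score was 56 and the median width 4500 bp, and 33.4% scored below the Nrp2 peak. With the lowest-scoring 25% of the hypoxia list left out, it was no longer counted. The 300 bases at its centre, shown because this is the interval that differed between the oxygen levels, are printed on the plus strand (chr1:62742351-62742650, GRCm38.p6, the build whose coordinates mm10 uses). Capitals mark the ETS core CGGAA, which ETS factors bind, and this stretch holds no HIF core. The share of other intervals with an ETS core was not computed.
Nrp2 hypoxia-only peak centre: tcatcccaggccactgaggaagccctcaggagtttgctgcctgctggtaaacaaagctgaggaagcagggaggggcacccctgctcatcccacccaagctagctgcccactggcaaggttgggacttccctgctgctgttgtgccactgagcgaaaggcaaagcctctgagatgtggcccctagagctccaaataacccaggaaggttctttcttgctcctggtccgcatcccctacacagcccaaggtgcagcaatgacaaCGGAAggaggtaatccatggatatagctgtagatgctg
Over the whole interval the HIF core (ACGTG or GCGTG, both strands) occurred 0.75 times per kb. The median of the hypoxia-only intervals without H3K4me3 was 1.23 per kb, with quartiles of 0.69 and 1.76, so the Nrp2 interval lay within them. The start peaks of Nrp2 and Vegfa had 3.38 and 2.77 per kb. Shared H3K27ac intervals that also carried H3K4me3 had a median of 2.33 per kb and quartiles of 1.6 and 3.2. These are counts of letters and not measured binding.

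The H3K27ac intervals present in both lists differed by at most 21 in score, and most of the differences were upward in hypoxia. Of the 5 below the score cap in both lists, 4 scored higher in hypoxia, by 6 at the Vegfa start, 21 at the Vegfb start, 7 at its neighbours' interval and 19 at the Nrp2 start. The Angpt2 interval scored lower by a difference of -2. The whole list leaned the same way: of 11015 shared intervals below the cap, 45.6% scored higher in hypoxia, 34.4% equal and the rest lower, with a median difference of 0 and an upper quartile of 7. The Vegfb and Nrp2 start differences exceeded those of 88.9% and 87.2% of shared intervals, and the Vegfa difference exceeded 72.4%. Because the lists carry no spread between libraries, none of these differences can be set against replicate error. H3K4me3 scores were identical between the oxygen levels at all 14600 shared intervals.

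**Figure D4:**
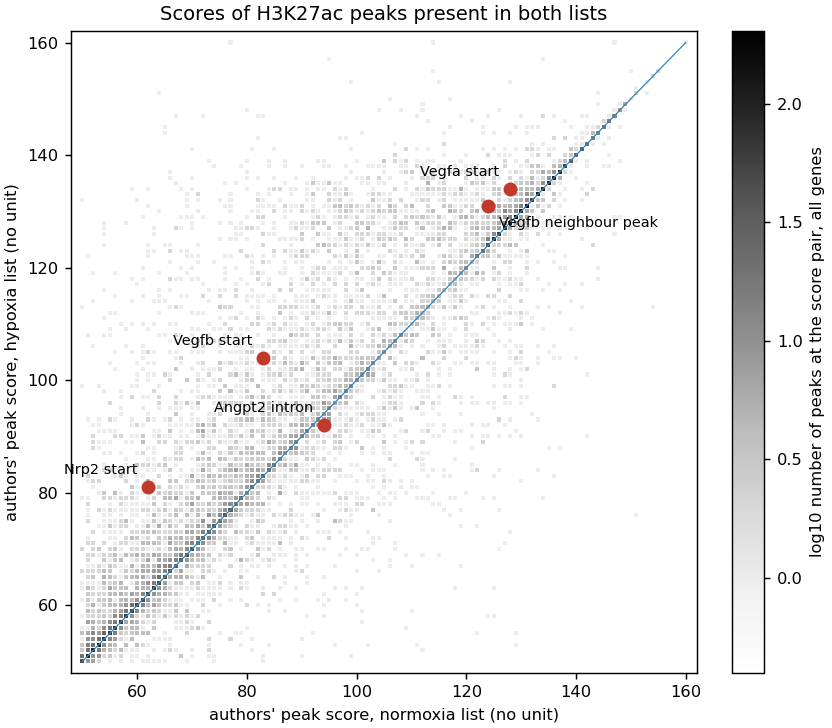
Authors' scores of the H3K27ac peaks in both lists and below the cap, normoxia on the horizontal axis and hypoxia on the vertical, with grey shade giving the log10 number of peaks at each pair of scores over the genome and the line marking equal scores. The 5 red points are peaks of the genes described here, of which Vegfb start (104 against 83) and Nrp2 start (81 against 62) lie farthest above the line.

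H3K4me3 was widest at the starts of Vegfa and Nrp2, which also carried H3K27ac. The 3 start intervals with both marks were 6500 bp (Vegfa), 3000 bp (Vegfb) and 6500 bp (Nrp2), and those with H3K4me3 only were 2000 bp (Kdr), 2500 bp (Vegfc), and 3000 bp (Angpt1 and Flt1). The ranges meet at 3000 bp. Over the hypoxia list, H3K4me3 domains that met H3K27ac had a median width of 3000 bp (n = 7423) and those that did not 2500 bp (n = 5715).

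Promoter sequences of RefSeq (GRCm38.p6, 250 bases before to 50 after a start) were matched for 8 of the 10 genes, not for Angpt1 and Angpt2. 5 are printed to show each state of the marks: both marks (Vegfa, chr17:46032328-46032627, minus strand, and Nrp2, chr1:62703067-62703366, plus), H3K4me3 only (Kdr, chr5:75978406-75978705, minus), and no mark (Pgf, chr12:85177264-85177563, minus, and Tek, chr4:94739039-94739338, plus). Each is written 5′ to 3′ on the gene's strand, with capitals for the HIF core (ACGTG or GCGTG) and the ETS core (CGGAA) on either strand.
Vegfa promoter: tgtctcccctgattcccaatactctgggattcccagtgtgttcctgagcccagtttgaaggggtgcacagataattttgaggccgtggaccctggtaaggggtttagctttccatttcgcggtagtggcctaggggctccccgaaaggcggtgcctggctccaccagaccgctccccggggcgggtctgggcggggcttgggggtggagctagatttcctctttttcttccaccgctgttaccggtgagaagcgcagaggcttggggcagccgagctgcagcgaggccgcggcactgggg
Nrp2 promoter: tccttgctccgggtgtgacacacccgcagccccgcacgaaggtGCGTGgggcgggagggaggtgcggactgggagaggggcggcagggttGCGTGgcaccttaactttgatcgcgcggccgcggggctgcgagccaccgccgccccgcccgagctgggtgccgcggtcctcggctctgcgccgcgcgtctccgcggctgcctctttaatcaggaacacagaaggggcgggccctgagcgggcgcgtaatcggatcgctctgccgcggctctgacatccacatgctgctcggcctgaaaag
Kdr promoter: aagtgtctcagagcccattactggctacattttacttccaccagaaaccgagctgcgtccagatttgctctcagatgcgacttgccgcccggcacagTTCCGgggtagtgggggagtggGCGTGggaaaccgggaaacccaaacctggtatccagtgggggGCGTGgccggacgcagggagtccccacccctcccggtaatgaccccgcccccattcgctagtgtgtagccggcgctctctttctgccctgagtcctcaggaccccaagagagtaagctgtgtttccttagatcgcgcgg
Pgf promoter: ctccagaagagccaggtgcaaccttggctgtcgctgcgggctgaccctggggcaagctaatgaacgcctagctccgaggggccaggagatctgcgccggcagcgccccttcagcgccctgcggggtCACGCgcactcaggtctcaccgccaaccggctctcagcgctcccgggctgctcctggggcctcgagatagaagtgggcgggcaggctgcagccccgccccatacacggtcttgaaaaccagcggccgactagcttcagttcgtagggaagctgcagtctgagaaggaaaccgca
Tek promoter: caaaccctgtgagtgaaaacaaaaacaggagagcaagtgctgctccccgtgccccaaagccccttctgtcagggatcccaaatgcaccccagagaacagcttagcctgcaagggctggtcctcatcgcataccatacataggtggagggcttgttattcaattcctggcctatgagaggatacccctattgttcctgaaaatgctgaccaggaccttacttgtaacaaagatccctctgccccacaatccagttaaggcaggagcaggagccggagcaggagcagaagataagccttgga

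The promoters were described by CpG content, given as the observed over expected ratio of CpG dinucleotides. The ratio was 0.992 at Nrp2, 0.959 at Vegfc, 0.78 at Flt1, 0.763 at Vegfb, 0.704 at the printed Pgf promoter, 0.689 at Kdr and 0.563 at Vegfa, and 0.149 at Tek. Over all 32851 promoters the median was 0.384, and by state in hypoxia it was 0.825 with both marks, 0.726 with H3K4me3 only and 0.207 with neither. Tek, without a mark, thus had a ratio below the median of unmarked promoters, whereas the printed Pgf promoter, also unmarked, had nearly that of H3K4me3-only promoters. RefSeq lists a further Pgf promoter (chr12:85175933-85176232, minus strand), likewise without a mark, with a ratio of 0.23 and no HIF core. Of the 11765 promoters with a ratio of at least 0.6, 90.7% carried H3K4me3. Among the 6 such promoters of these genes it was 5, with Pgf the exception.

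Promoters with and without a HIF core were found in each state of the marks. The HIF core occurred 207 and 160 bases before the Nrp2 start, 237 and 81 bases before that of Vegfb, 131 and 89 bases before that of Kdr, 184 bases before that of Flt1 and 124 bases before that of Pgf. The printed Vegfa promoter and the Vegfc and Tek promoters held none within this window, although the 6500 bp Vegfa peak held 18. Of these 8 genes Kdr alone held an ETS core, 153 bases before its start. Over all promoters, 43.8% held a HIF core and 29.9% an ETS core. These shares were 67.2% and 53.7% with both marks and 27.9% and 15.2% with neither. Both cores contain a CpG, and the median CpG ratio was 0.825 with both marks and 0.207 with neither. Whether the shares follow CpG content was not tested.

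To place the 10 genes in their pathway, 32 other angiogenic ligands and secreted modulators and 22 other receptors were read in the same way. Of the 32, 17 had both marks at a start in hypoxia, 10 H3K4me3 only, 2 H3K27ac only and 3 neither, and 23 had H3K27ac in the window at either oxygen level. Their median H3K27ac coverage was 7.05% in hypoxia and 7.12% in normoxia. Over all genes 36.4% had both marks, 22.5% H3K4me3 only and 39.9% neither, 54.9% had H3K27ac in the window, and the median coverage was 2.53% in hypoxia and 2.42% in normoxia. Of the 22 receptors, 10 had both marks, 8 H3K4me3 only and 4 neither, and 16 had H3K27ac in the window in hypoxia and 14 in normoxia. Their median coverage was 11.0% in hypoxia and 4.52% in normoxia, a difference that could not be tested. Coverage differed only at the 4 receptors with a hypoxia-only peak in the window. These were Acvrl1 (15.0% in hypoxia and 0% in normoxia), Ramp2 (13.1% and 4.67%), Fgfr2 (12.0% and 11.6%) and S1pr1 (7.84% and 0%). Nrp1, the paralogue of Nrp2 and a co-receptor for VEGF-A, and Flt4, the receptor of VEGF-C, were picked out after their values were seen. Nrp1 had both marks at a start and 14.6% of its window under H3K27ac in both cultures. Flt4 had H3K4me3 only and 0% under H3K27ac.

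Hypoxia-only H3K27ac peaks lay in the windows of 3 of these other ligands and 4 of these receptors, and normoxia-only peaks in 3 and 0. Over all genes the shares were 4.68% hypoxia-only and 1.15% normoxia-only. At Cxcl12, the chemokine that retains blood stem cells in the marrow, a 9500 bp hypoxia-only peak with a score of 52 lay 3424 bp from the start, and coverage was 26.5% in hypoxia and 8.52% in normoxia. Thbs2, encoding an inhibitor of angiogenesis, and S1pr1, a sphingosine 1-phosphate receptor that stabilises vessels, each had a hypoxia-only peak over the start. The scores were 58 and 50, and 50 was the lowest score in either H3K27ac list. Thbs2 and S1pr1 thus had both marks at the start in hypoxia and H3K4me3 only in normoxia. Elsewhere in its window Thbs2 kept H3K27ac in normoxia, with a coverage of 42.2%, whereas the S1pr1 window then held none. Slit3, a guidance ligand, had a peak of this kind inside the gene (score 80). Acvrl1, an endothelial receptor of BMP9, had another 4868 bp from its start (score 85). The peak in the Ramp2 window (score 107) lay nearest Ezh1, and those assigned to Fgfr2 (scores 50 and 64) lay nearest Htra1 and Lhpp, because GENCODE gives Fgfr2 a body of 2960900 bp. Normoxia-only peaks lay at Ccn2 (score 53), which encodes a matrix-bound growth factor modulator, and Thbs1 (score 50), another inhibitor of angiogenesis. The Notch ligand Jag1 also had one (score 51). Coverage in hypoxia and normoxia was 38.2% and 67.2% at Thbs1, 7.31% and 19.3% at Jag1, and 7.07% and 11.7% at Ccn2.

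Lists of cell markers were read to check the labelled cell type. The examples named from them, other than Cxcl12, Thy1 and Cd68, were picked after their values were seen. Of 16 mesenchymal stromal genes, 10 had both marks at a start, 3 H3K4me3 only and 3 H3K27ac only. H3K27ac lay in 15 of their windows, with a median coverage of 33.2% in hypoxia and 29.9% in normoxia. Coverage differed only at Cxcl12 (26.5% in hypoxia and 8.52% in normoxia) and Thy1 (34.5% and 27.8%), each with a hypoxia-only peak. Over all genes 36.4% had both marks in hypoxia, 22.5% H3K4me3 only and 1.14% H3K27ac only. H3K27ac lay in 54.9% of all windows, with a median coverage of 2.53% in hypoxia and 2.42% in normoxia. Collagen genes were among the most covered of the 16, Col1a1 with 76.2% and Col3a1 with 72.9%. The 3 genes with H3K4me3 only were the least covered, Twist2 with 5.2%, Nt5e with 3.53% and Lepr with 0%. Pdgfra, which encodes CD140a, had 22.7% and Ly6a, which encodes Sca-1, 24.3%, and both proteins were used in the sort. Thy1, a stromal surface protein, had a hypoxia-only peak over a start (score 55).

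Of 20 endothelial genes, 0 had both marks at a start, 6 had H3K4me3 only and 14 had neither. Over all genes these shares were 36.4%, 22.5% and 39.9%. Cdh5, Pecam1 and Vwf, which encode vascular endothelial cadherin, CD31 and von Willebrand factor, were among the 14 with neither. H3K27ac covered 0%, 5.13% and 4.17% of their windows. The 6 with H3K4me3 only were Cldn5, Erg, Tal1, Ptprb, Egfl7 and Clec14a. H3K27ac fell in 7 of the 20 windows and coverage ranged up to 20.4% (Plvap), with a median of 0% and no peak specific to either oxygen level. Over all genes 54.9% had H3K27ac in the window, 4.68% a hypoxia-only peak and 1.15% a normoxia-only peak. A list of 20 genes is too small for the absence of such peaks to be read against those shares. Of 14 haematopoietic genes, 1 (Cd68) had both marks, 5 H3K4me3 only, 1 (Csf1r, which lies beside Pdgfrb) H3K27ac only and 7 neither. Ptprc, which encodes CD45, had neither mark at its start and 0% H3K27ac. Spi1 also had neither at its start, but 14.5% of its window was under H3K27ac. Tie1, Robo4 and Egfl7 stand in both an endothelial and an angiogenic list, and Cxcl12, Pdgfra and Pdgfrb in both a mesenchymal and an angiogenic list.

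**Figure D5:**
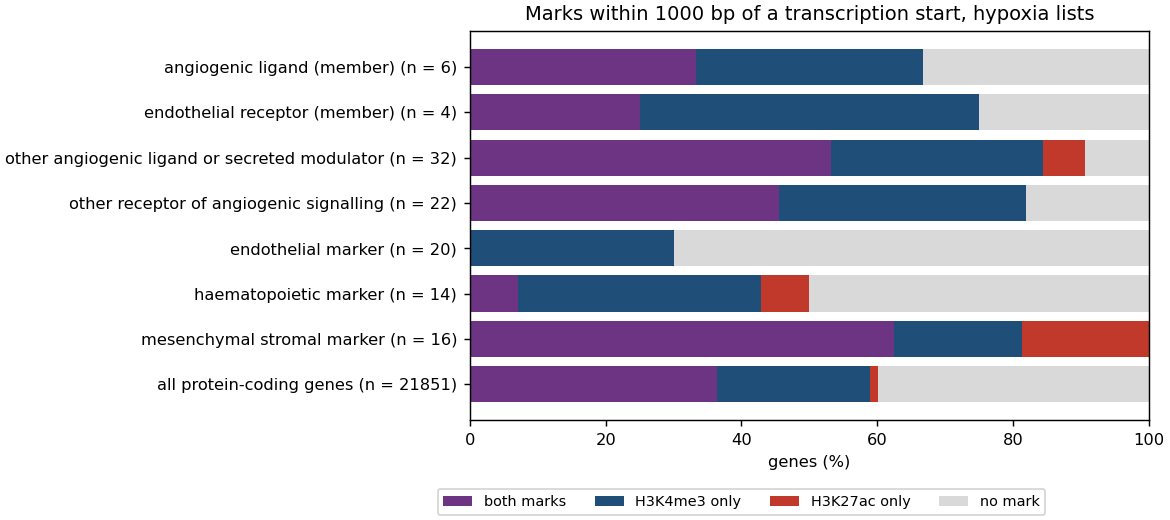
Percent of the genes of each list with both marks, H3K4me3 only, H3K27ac only or no mark within 1000 bp of a transcription start, in the hypoxia lists, with the number of genes beside each name. The 20 endothelial genes show no gene with both marks, whereas the 16 mesenchymal stromal genes show no gene without a mark.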

How the data were processed

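H3K27ac, H3K4me3 and input ChIP-seq libraries of MSCs in hypoxia and normoxia, 2 per group, were read through 4 deposited peak lists, 1 per mark and oxygen level. The authors aligned the reads to mm10 (Bowtie2), discarded duplicate reads (Picard) and ran chromstaR on both conditions jointly to call peaks. The value deposited for each peak is the authors' score, which has no stated unit and is capped at 1000. The lists hold 14603 to 15203 peaks on a 500 bp grid as views of a joint segmentation, so a peak is either identical in a pair of lists or absent from it, and a peak near the calling limit can be listed at a single oxygen level. Depth, spread between libraries and input signal were not analysed here.

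Peaks were intersected with GENCODE M21 basic genes (window 20000 bp, start window 1000 bp) in Python 3.11.15 with pandas 2.3.3 and pysam 0.24.0, checked on simulated intervals. Coverage is the percent of a window under peaks. A peak is hypoxia-only or normoxia-only if the other list holds no overlapping peak. By rule all 10 genes were named, and of the wider lists those with a peak specific to an oxygen level, endothelial or haematopoietic genes with both marks at a start and mesenchymal genes with neither. Names outside the rule are marked as such. The members and the lists were chosen with earlier results of these data known. Alternatives were other windows, peaks nearest a gene's own starts, score filters, overlap and gap rules, and rank differences.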

Additional observations from a re-analysis of the deposited data

How the results depend on the processing

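Of the values recomputed under alternatives, 90 stayed within the limits set for them (a count within 1.5 times, a coverage within the 95% binomial interval of the main value over 500 bp bins, or the same direction of a score difference) and 15 moved. With a window of 50000 bp the ligands had 9 H3K27ac peaks and 13 H3K4me3 peaks at each oxygen level, against 4 and 7, since more neighbours of Vegfb and Pgf entered, and receptor H3K27ac coverage was 3.37% in hypoxia and 2.9% in normoxia. Counting only peaks nearest a gene's own starts left 4 ligand H3K4me3 peaks at each level. Gene bodies alone gave a ligand H3K4me3 coverage of 2.45% at each level and a receptor H3K27ac coverage of 6.01% in hypoxia. Without the lowest-scoring 25% of peaks, 1 receptor H3K27ac peak was left in normoxia (coverage 2.98%), 0 receptors had H3K27ac at a start in normoxia because the Nrp2 start peak was left out, and the count of hypoxia-only peaks was 0. The 5 score differences kept their direction as differences of percentile ranks.

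No paired analysis was possible because a single list was deposited for the 2 libraries of a group, with no column for a replicate. Leaving out a library was not run, for the same reason. The lists do not show the sequencing depth, which limits what an absent peak means.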

Other observations

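RefSeq lists a further Vegfa start downstream of those in GENCODE (promoter chr17:46025114-46025413, minus strand, GRCm38.p6), which lay outside the Vegfa peak and had no mark. Its promoter held 2 HIF cores, 218 and 211 bases before the start, and had a CpG ratio of 0.406. Of all promoters with neither mark in hypoxia, 27.9% held a HIF core, and a match is not measured binding. Beyond the window of Pgf, an H3K27ac interval without H3K4me3 (chr12:85124501-85134000, 9500 bp) lay 32635 bp from the gene body and nearest the start of Dlst, with a score of 84 in hypoxia and 89 in normoxia.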
